A study of Mus musculus with 2 samples.

Results

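Of the immediate-early response, 10 genes that do not encode subunits of the AP-1 transcription factor were followed through 2 single-cell RNA libraries of mouse pancreatic tumours. The 10 genes were Egr1, Egr2, Ier2, Ier3, Zfp36, Klf2, Klf4, Klf6, Nr4a1 and Btg2. They were chosen by symbol, and each matched 1 of the 32285 genes listed in the deposited count matrices. Tumours came from KPPC mice, a model in which, as background, a Cre recombinase acting in the pancreas alters the genes of the epithelium, Trp53 among them, so that tumours form; the alleles and the Cre driver are not given in the sources used here. Both groups carried this genotype, were 6 weeks old and were dosed for 14 days. The first group received vehicle and the second takinib at 50 mg/kg, a small molecule that inhibits TAK1, a kinase upstream of NF-kB, JNK and p38 signalling. The comparison asks how the cells of these tumours differed under the inhibitor. Each group was 1 library, and the labels do not say how many mice went into it. No difference between treatments below therefore has a replicate check, and none carries a test or a p-value.

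Immediate-early genes are transcribed within minutes of a stimulus from promoters that are already loaded with the factors they need, so that no new protein has to be made first. Growth factors acting through ERK and the serum response factor, cyclic AMP acting through CREB, and inflammatory signals acting through NF-kB and p38 all induce overlapping sets of them. The mRNAs are short-lived, and several of the proteins switch the response off again, by destroying mRNA (ZFP36) or by slowing division (BTG2). In tumours the same genes mark cells that are receiving signals, and they are also known to be induced by handling and warm enzymatic digestion of tissue, which both libraries went through under the same protocol. AP-1 subunits (Fos, Jun and their relatives) are the other large group of immediate-early genes and serve here only for comparison.

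The promoters of these genes are shown first, to show which motifs of the known inputs lie before their start sites. RefSeq windows on GRCm38.p6 were found for 8 of the 10 genes, and none for Egr1 and Ier2. The 250 bases before each start were searched on both strands for the CArG box bound by serum response factor, the CRE (TGACGTCA) bound by CREB, the AP-1 site (TGANTCA), the EGR site (GCGNGGGCG), an NF-kB site, the GC box (GGGCGG) and a TATA box (TATAAA). Printed in lower case from 5′ to 3′ on the gene's own strand, without annotated UTR bases, the windows below have every CArG box, CRE, EGR site and NF-kB site in capitals. GC boxes are not marked, and they overlap the EGR sites shown for Klf2 and Nr4a1.
Egr2, chr10:67537619-67537868, plus strand: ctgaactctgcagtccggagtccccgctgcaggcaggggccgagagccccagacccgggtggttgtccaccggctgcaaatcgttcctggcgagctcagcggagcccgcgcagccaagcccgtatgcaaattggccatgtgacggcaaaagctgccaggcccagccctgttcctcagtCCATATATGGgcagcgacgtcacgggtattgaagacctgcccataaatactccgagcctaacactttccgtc
Ier3, chr17:35821463-35821683, plus strand: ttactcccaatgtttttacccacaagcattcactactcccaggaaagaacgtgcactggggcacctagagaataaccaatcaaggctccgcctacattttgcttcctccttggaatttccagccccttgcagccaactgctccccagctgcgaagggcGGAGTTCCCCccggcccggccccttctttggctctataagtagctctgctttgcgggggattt
Klf2, chr8:72318812-72319032, plus strand: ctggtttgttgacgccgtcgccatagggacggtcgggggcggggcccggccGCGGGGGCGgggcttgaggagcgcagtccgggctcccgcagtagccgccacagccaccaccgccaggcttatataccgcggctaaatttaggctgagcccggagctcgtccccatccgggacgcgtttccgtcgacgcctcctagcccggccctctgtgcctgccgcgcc
Nr4a1, chr15:101266596-101266845, plus strand: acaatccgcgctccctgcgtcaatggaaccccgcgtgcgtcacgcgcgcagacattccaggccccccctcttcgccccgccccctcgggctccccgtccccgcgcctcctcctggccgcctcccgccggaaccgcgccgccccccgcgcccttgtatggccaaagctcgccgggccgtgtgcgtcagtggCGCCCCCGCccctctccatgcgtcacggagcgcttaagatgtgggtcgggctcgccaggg
Btg2, chr1:134079156-134079405, minus strand: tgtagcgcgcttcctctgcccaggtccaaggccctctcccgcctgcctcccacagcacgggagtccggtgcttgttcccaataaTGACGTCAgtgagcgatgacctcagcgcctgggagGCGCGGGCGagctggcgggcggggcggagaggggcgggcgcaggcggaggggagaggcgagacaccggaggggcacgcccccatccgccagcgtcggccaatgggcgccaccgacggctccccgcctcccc
A CArG box lay before a start of Egr2 and of Zfp36, against 1.47% of all 32851 promoter windows. Ier3 was the only one of the 8 with the NF-kB site, which 3.9% of windows held. The palindromic CRE was found only in Btg2, and 1.55% of windows held it. Zfp36, Klf2, Klf4, Nr4a1 and Btg2 held an EGR site, which 4.7% of windows held. The GC box was present in all 8 and in 32.7% of windows. Neither the AP-1 site (6.75% of windows) nor the TATA box as spelled here (12.4%) was found in any of the 8. A match is a description of letters in the window and not evidence of binding.

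Before the results, 4 properties of the libraries need stating. After the same filters, 9558 vehicle cells and 25183 takinib cells were kept, holding 42000538 and 119726977 UMIs (molecular barcodes by which each captured transcript is counted once), with median depths of 3556 and 2887 UMIs and median mitochondrial shares of 8.70% and 1.79%. The vehicle library mixed cells with Y-linked UMIs and no Xist (3087 cells) and cells with Xist and no Y-linked UMI (1075). The takinib library had 14324 of the latter and 0 of the former. In addition, 359 kept barcodes were shared between the libraries. Lastly, transcripts of neutrophils were found in the other classes of the takinib library, as given below beside the results. Cells were clustered without the immediate-early and heat-shock genes and named from marker genes, and 8 classes had at least 50 cells in each library. These were B-like (238 vehicle and 1371 takinib cells), T-like (254 and 1251), monocyte-like (168 and 779), macrophage-like (4840 and 3847), neutrophil-like (262 and 11433), epithelial-like (1207 and 1175), fibroblast-like (691 and 349) and endothelial-like cells (717 and 104). The monocyte-like cluster also had Ccl22 and Ccr7, genes of dendritic cells, among its leading genes. Neutrophil-like vehicle cells lay almost wholly in 1 cluster (255 of 262), and most takinib ones in clusters that vehicle barely filled. Treatment, library, mitochondrial share, sex of the animals and neutrophil transcripts differed together and cannot be told apart by the design.

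Levels are given as CPM, counts per 1000000: the UMIs of a gene from all cells that belong to a class are pooled by library, divided by the pooled total and multiplied by 1000000. Intervals in square brackets are exact Poisson 95% intervals, which cover counting error only. Differences are log2 of takinib over vehicle after adding 10 CPM to each, which understates changes of low genes, and a gene is called higher or lower past 2-fold, a log2 ratio of 1. Of the 10 genes, 9 reached a mean of 20 CPM in each class, the floor for the background of all genes. Egr2 reached it only in macrophage-like and neutrophil-like cells.

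Neutrophil-like cells had the highest level for 8 of the 10 genes in each library. Egr1, for example, stood at 1452 CPM [1326, 1586] in neutrophil-like vehicle cells, against 154 CPM [148, 159] in macrophage-like cells, the next class, and 42.7 CPM [34.4, 52.3] in endothelial-like cells, the lowest. Between those ends the order was not resolved: from epithelial-like (128 CPM) down to T-like cells (81.3 CPM) each class had an interval overlapping the next. Klf4 departed from the pattern in both libraries. Its highest level was in macrophage-like cells, at 98.6 CPM [94.4, 103] in vehicle and 189 CPM [184, 194] in takinib, and neutrophil-like cells had 44.5 and 20.3 CPM. In vehicle, epithelial-like cells were level with macrophage-like cells for Klf4, at 97.2 CPM [90.5, 104]. Klf6 in vehicle was level between epithelial-like (415 CPM [401, 429]) and neutrophil-like cells (410 CPM [344, 484]). In takinib, Egr2 was highest in macrophage-like cells, at 45.2 CPM [42.8, 47.8] against 15.4 CPM [14.0, 17.0] in neutrophil-like cells. Perivascular-like cells, compared in vehicle only, were among the lowest for most of these genes, with 52.1 CPM of Ier3 [43.1, 62.5] and 57.0 CPM of Btg2 [47.6, 67.8].

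**Figure D1:**
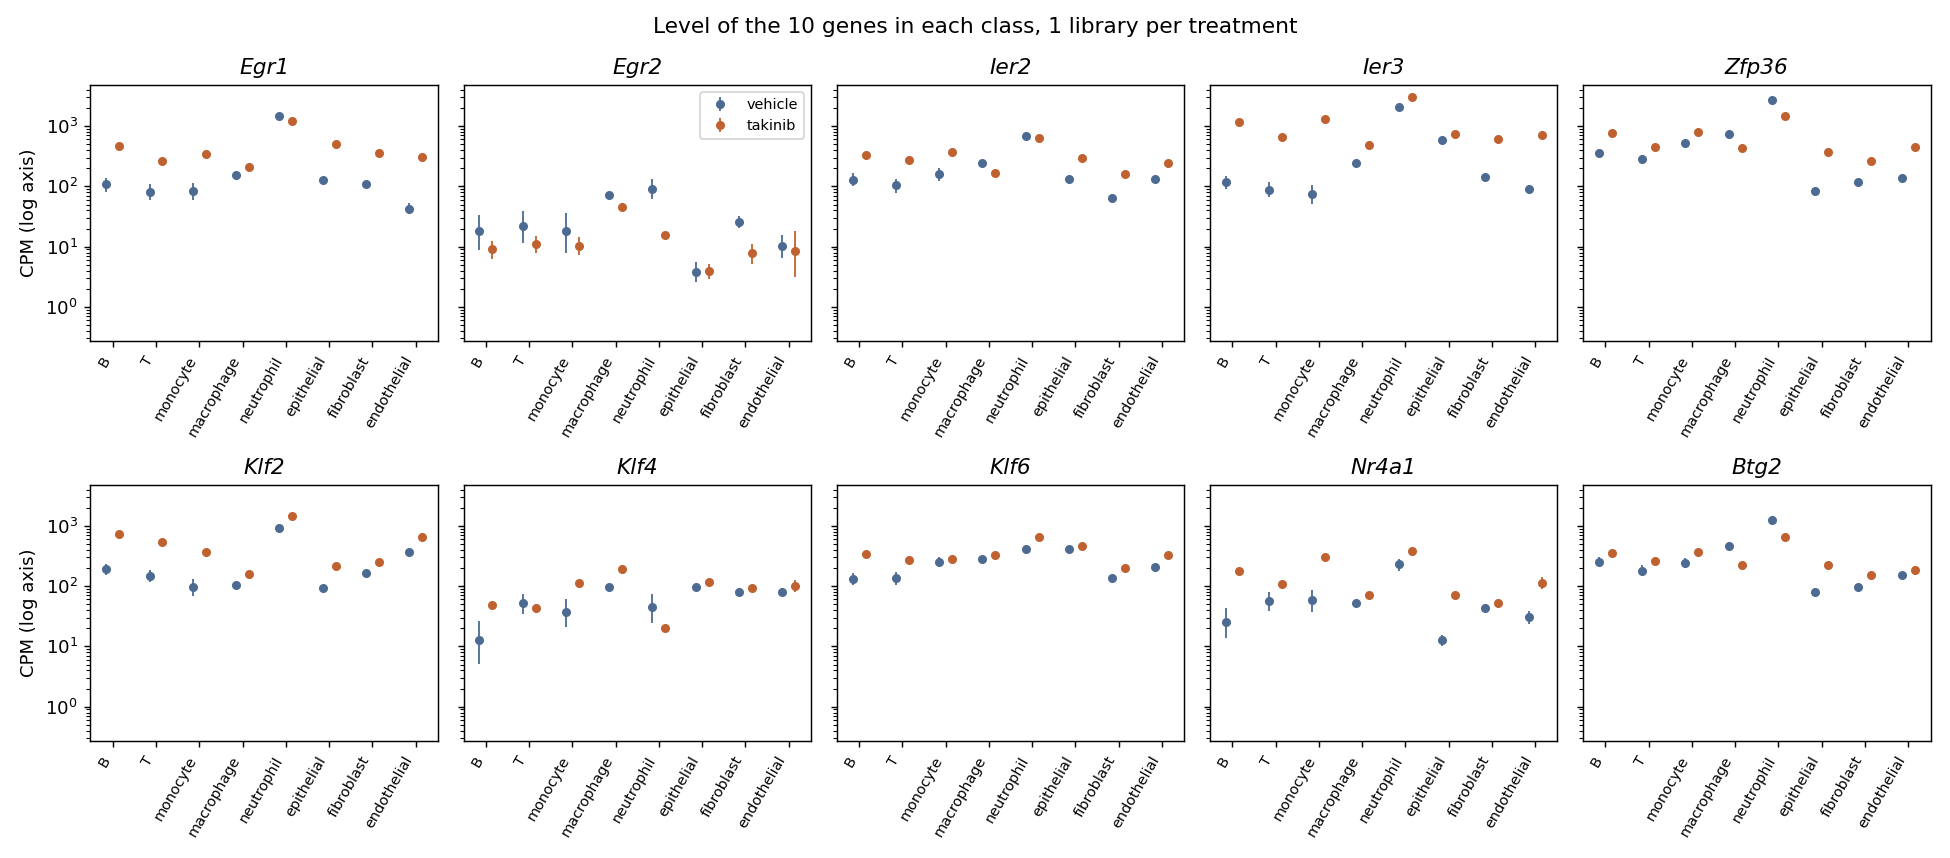
Level of each of the 10 genes in CPM (log axis) by class of cells, with vehicle in blue, takinib in orange, 1 library per point and bars for the exact Poisson 95% interval of counting error. Neutrophil-like cells stand highest for most genes, Klf4 and Egr2 differ from that, and the takinib points lie above the vehicle points in B-like, monocyte-like, epithelial-like and endothelial-like cells for Egr1, Ier3 and Nr4a1.

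Between the libraries, 8 to 10 of the 10 genes had a log2 ratio above 0, higher in takinib, in lymphoid, monocyte-like, epithelial and stromal cells. In macrophage-like cells 6 did, and in neutrophil-like cells 4. Fewer passed 2-fold. In B-like cells 8 of the 10 were higher past 2-fold and 0 lower, where 6.67% of all genes tested were higher and 2.71% lower. With at most 10% mitochondrial UMIs per cell this count became 4 higher and 1 lower (7.42% and 6.57% of all genes), with a median of 0.90. Monocyte-like cells had 6 higher and 0 lower (5.4% and 4.56% of all genes), and epithelial-like cells 6 and 0 (3.68% and 2.96%). T-like cells had 4 higher and 0 lower (3.86% and 2.24%), endothelial-like cells 4 and 0 (4.6% and 4.51%) and fibroblast-like cells 4 and 1 (4.47% and 6.08%), the latter being Egr2 below the floor of 20 CPM. In macrophage-like cells 0 were higher and 1, Btg2, was lower (2.53% and 1.53% of all genes). Neutrophil-like cells also had 0 higher and 1 lower, Egr2 (6.95% and 22.8%).

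The median log2 ratio over the 10 genes gave a similar order. It was 1.33 in B-like, 1.27 in monocyte-like, 1.10 in epithelial-like, 0.91 in T-like, 0.81 in endothelial-like, 0.59 in fibroblast-like, 0.31 in macrophage-like and -0.19 in neutrophil-like cells. Without doublet removal the monocyte-like median became 0.33, with 4 higher (6.66% of all genes). In that setting the class also took in a cluster led by U90926 and Saa3 (9 vehicle and 2778 takinib cells). The like cluster has no class name in the main setting. The place of monocyte-like cells in the order therefore depends on doublet removal and cluster naming, and their parts were not told apart. Over all genes tested the medians lay between -0.11 and 0.06 in the first 7 of these classes and at -0.48 in neutrophil-like cells. With the median gene of neutrophil-like cells set to 0, the median of the 10 genes there became 0.29. In that setting 4 were higher and 1 lower past 2-fold (13.4% and 7.17% of all genes). Clustering each library alone gave a neutrophil-like median of 0.63, with 3 higher and 2 lower (7.53% and 20.6%). The direction in that class therefore depends on the scaling and on the clustering.

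**Figure D2:**
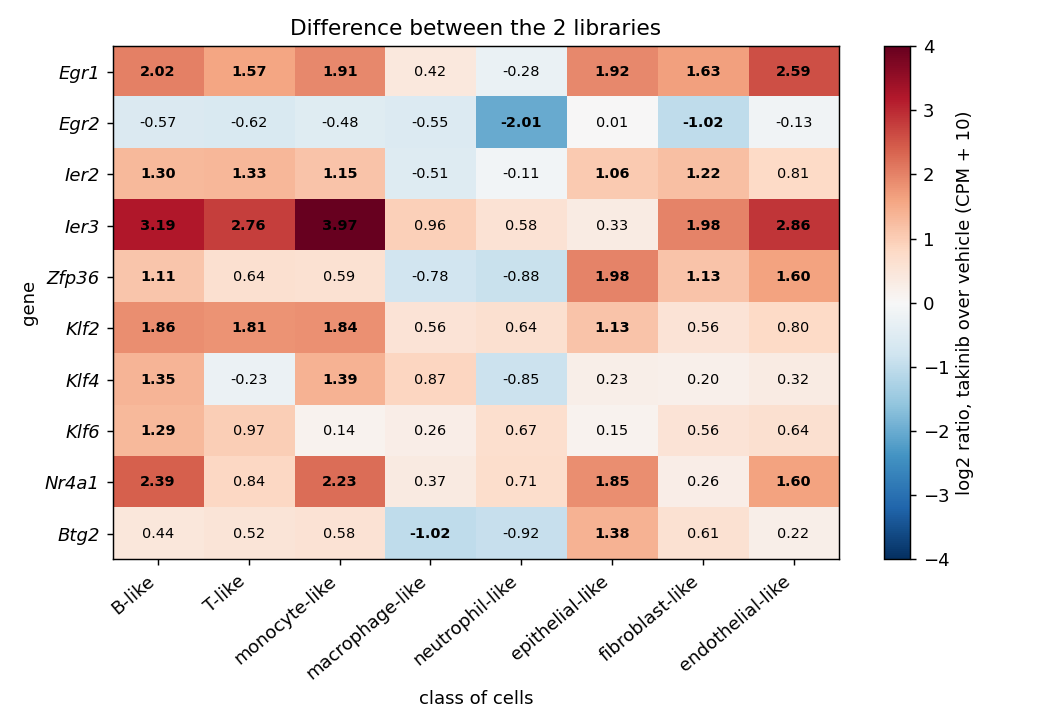
Log2 ratio of takinib over vehicle (CPM plus 10) for each gene (rows) in each class (columns), with values printed in the squares, bold past 2-fold, red for higher in takinib and blue for lower. Ier3, Egr1 and Nr4a1 hold the darkest red squares, up to 3.97 for Ier3 in monocyte-like cells, and Egr2 the darkest blue square, -2.01 in neutrophil-like cells.

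Neutrophil transcripts moved with these differences. Summed S100a8 and S100a9, the most abundant neutrophil mRNAs among the markers, went from 619 to 35597 CPM in B-like cells, 473 to 16805 in T-like, 419 to 23750 in endothelial-like, 101 to 11664 in epithelial-like, 97.8 to 9441 in fibroblast-like, 282 to 5682 in macrophage-like and 2154 to 13707 in monocyte-like cells. All 12 neutrophil markers were detected in takinib in each of these classes, and at most 1 was at 0 in vehicle. The takinib neutrophil-like cells themselves held 114042 CPM, so the level in a class corresponded to between 4.98% (macrophage-like) and 31.2% (B-like) of its UMIs having a neutrophil-like profile. Scaled by that share, the neutrophil-like level of a gene can be set beside its level in the class, which shows sizes and not a cause. It amounts to 83.9% of the Ier3 level of takinib B-like cells, 88.8% of that of endothelial-like cells and 28.4% of that of monocyte-like cells. For Klf4 it amounts to at most 13.2% of the level in any class.

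Alternatives of 2 kinds show what was left. In the first, only takinib cells at or below their class median share of S100a8 and S100a9 were used, a choice made after the data were seen. In the second, the takinib neutrophil-like profile was subtracted in proportion. Both change the takinib side only. Vehicle levels were left as they were, although S100a8 and S100a9 summed to 2154 CPM in vehicle monocyte-like cells, against 36185 CPM in vehicle neutrophil-like cells. Monocyte-like cells kept the highest median, 1.10 with the low-neutrophil cells and 1.05 with the subtraction, and 5 of 10 genes higher past 2-fold in both (4.33% and 4.56% of all genes). In that class dendritic cell markers summed to 1313 CPM in vehicle and 210 in takinib, and monocyte markers to 4844 and 10992 CPM, so its make-up differed between the libraries, and the part of this in its values was not tested. Epithelial-like cells had 0.63 and 0.60, with 4 genes higher in both (2.41% and 2.56% of all genes). B-like cells had 0.49 and 0.55 with 3 genes in both (3.14% and 2.46%), T-like cells 0.29 and 0.20 with 2 in both (2.19% and 2.08%), and fibroblast-like cells 0.33 and 0.27 with 2 in both (4.43% and 3.56%). Endothelial-like cells had 0.24 and 0.22, with 2 genes higher in the first and 0 in the second (3.53% and 2.95%). Macrophage-like cells had -0.10 and -0.07, with 0 genes higher in both (2.07% and 2.24%), so that the sign of their median was not kept.

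**Figure D3:**
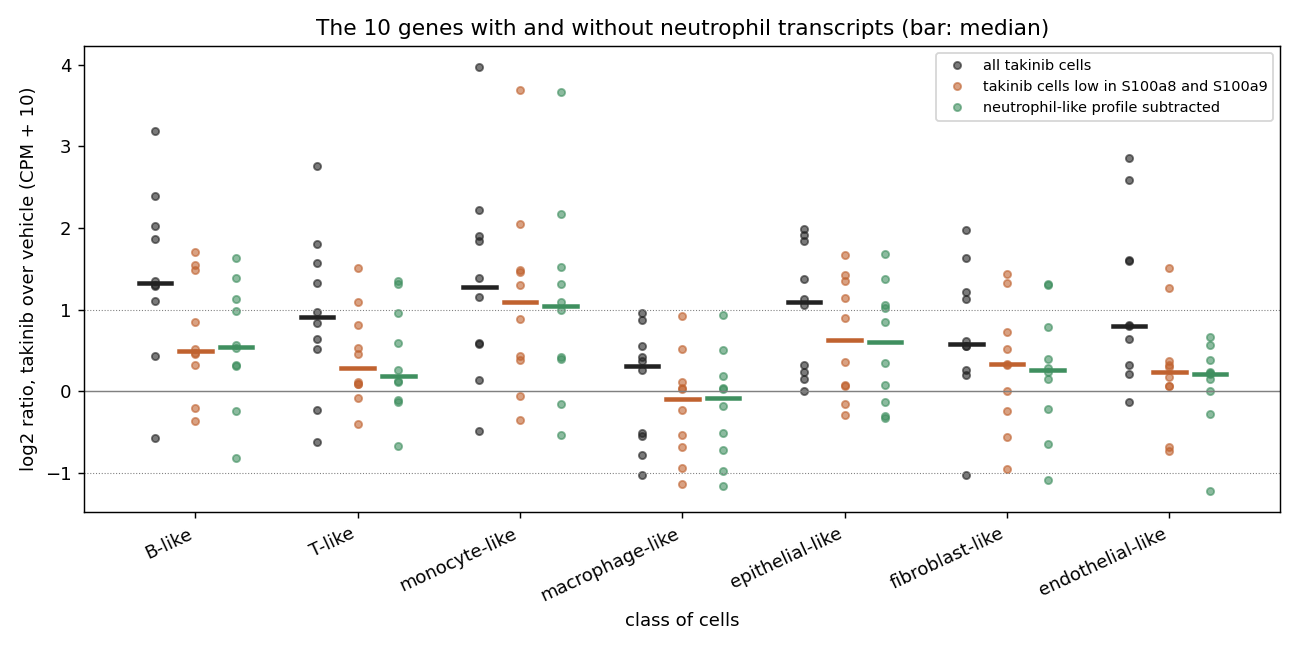
Log2 ratio of takinib over vehicle (CPM plus 10) for the 10 genes in 7 classes, each point 1 gene and each bar the median, from all takinib cells (black), from takinib cells low in S100a8 and S100a9 (orange) and after subtraction of the neutrophil-like profile (green). Dotted lines mark 2-fold. The bars drop in each class, least in monocyte-like cells (1.27 to 1.10 and 1.05) and below 0 in macrophage-like cells.

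Among the transcription factors, Egr1 (ENSMUSG00000038418, chromosome 18, 34859823 to 34864984, plus strand, in GENCODE M21 on GRCm38) encodes a zinc-finger protein that is the classic read-out of ERK and serum response factor activity. It was higher past 2-fold in 6 of the 8 classes. Epithelial-like cells went from 128 CPM [121, 136] in vehicle to 513 CPM [501, 526] in takinib, a log2 ratio of 1.92 that stayed at 1.67 in the cells low in neutrophil transcripts. Endothelial-like cells had 42.7 and 308 CPM [268, 352], a ratio of 2.59 that became 1.51, and fibroblast-like cells 110 and 363 CPM, 1.63 that became 1.32. In B-like cells the level went from 108 CPM [82.2, 139] to 469 CPM [447, 491], and the ratio of 2.02 became 0.46, below 2-fold. The 2 libraries were closer in macrophage-like cells, at 154 and 209 CPM, and in neutrophil-like cells, at 1452 and 1197 CPM.

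Egr2 (ENSMUSG00000037868, chromosome 10, 67535475 to 67542188, plus strand), a relative of Egr1 known for its role in macrophages, lymphocytes and Schwann cells, went the other way. It was lower past 2-fold in 2 classes, higher in 0, and its median ratio over the 8 classes was -0.56. Neutrophil-like cells had 92.03 CPM [62.5, 131] in vehicle, from 31 UMIs, and 15.4 CPM in takinib, a ratio of -2.01. Macrophage-like cells, where it was best measured, had 70.8 CPM [67.3, 74.5] and 45.2 CPM [42.8, 47.8], a ratio of -0.55 whose intervals do not overlap. In fibroblast-like cells 26.0 CPM [20.5, 32.6] stood against 7.76 CPM [5.20, 11.1], while epithelial-like cells were at 3.86 and 3.97 CPM, near the detection limit.

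Nr4a1 (ENSMUSG00000023034, chromosome 15, 101254269 to 101274795, plus strand) encodes Nur77, an orphan nuclear receptor induced by antigen receptor signalling in lymphocytes and by inflammatory signals in myeloid cells. It was higher past 2-fold in 4 classes. Epithelial-like cells had 12.6 CPM [10.3, 15.3] and 71.2 CPM [66.6, 76.1], a ratio of 1.85, or 1.36 in the low-neutrophil cells. B-like cells had 25.6 CPM [14.0, 43.0] and 176 CPM [163, 190], and the ratio of 2.39 became 1.55. The monocyte-like ratio of 2.23, from 57.9 CPM [37.5, 85.5] to 308 CPM [290, 326], became 2.05. Endothelial-like cells did not keep theirs: 1.60 became 0.37. In fibroblast-like cells the intervals overlapped, at 42.6 CPM [35.4, 50.9] and 53.3 CPM [46.1, 61.2].

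The Krüppel-like factors split by gene and cell type. Klf2 (ENSMUSG00000055148, chromosome 8, 72319033 to 72321656, plus strand), which keeps lymphocytes and endothelium quiescent, was higher past 2-fold in 4 classes. T-like cells had 148 CPM [117, 184] and 542 CPM [517, 567], a ratio of 1.81 that became 1.10 in the low-neutrophil cells, and monocyte-like cells 94.97 and 365 CPM, 1.84 that became 1.31. In endothelial-like cells, where Klf2 responds to blood flow, the levels were 367 CPM [342, 394] and 648 CPM [590, 711], and the ratio of 0.80 became 0.07. In epithelial-like cells 92.6 and 215 CPM gave 1.13, which became 0.08 in the low-neutrophil cells and turned to -0.30 under the subtraction.

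Klf4 (ENSMUSG00000003032, chromosome 4, 55527143 to 55532466, minus strand), a factor of monocyte differentiation, epithelial barrier and vascular quiescence, had the smallest scaled neutrophil share of the 10 genes. It was higher past 2-fold in monocyte-like cells, with 37.1 CPM [21.2, 60.2] and 114 CPM [103, 125], and in B-like cells, with 12.8 CPM from 7 UMIs and 48.0 CPM [41.2, 55.7]. The ratios of 1.39 and 1.35 were 1.49 and 1.71 in the low-neutrophil cells. Transcripts of macrophages, the class highest in Klf4, were also found in B-like cells. There the macrophage markers reached 6641 CPM (vehicle) and 5041 CPM (takinib) in total, above 6043 and 4034 CPM for B-cell markers. The part of macrophage transcripts in the B-like Klf4 values was not tested. Macrophage-like cells had 0.87, from 98.6 to 189 CPM, and 0.92 in the low-neutrophil cells, under 2-fold both times. Klf6 (ENSMUSG00000000078, chromosome 13, 5861482 to 5870394, plus strand), a tumour suppressor in several epithelia, was past 2-fold only in B-like cells, with 134 CPM [105, 168] and 342 CPM [323, 362], a ratio of 1.29 that became 0.47. Its epithelial-like levels of 415 and 462 CPM gave 0.15.

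Ier3 (ENSMUSG00000003541, chromosome 17, 35821684 to 35822923, plus strand), also called IEX-1, is an NF-kB target that protects cells from death, and its window above carries the NF-kB site. It had the largest single ratio of the 10 genes, and 5 classes were past 2-fold. Monocyte-like cells went from 74.1 CPM [50.7, 105] in vehicle to 1308 CPM [1271, 1345] in takinib, a ratio of 3.97, and the low-neutrophil cells still had 1072 CPM [1026, 1121], a ratio of 3.69. In B-like cells 117 CPM [90.2, 150] and 1148 CPM [1114, 1184] gave 3.19, which became 1.49. Endothelial-like cells had 90.9 and 724 CPM, 2.86 that became 1.27, and T-like cells 88.7 and 660 CPM, 2.76 that became 1.51. Fibroblast-like cells had 145 and 600 CPM, 1.98 that became 1.44. The other classes were within 2-fold: macrophage-like cells with 247 and 491 CPM (0.96), neutrophil-like cells with 2066 and 3085 CPM (0.58) and epithelial-like cells with 577 CPM [561, 594] and 727 CPM [712, 742] (0.33). The epithelial-like ratio changed sign to -0.28 in the low-neutrophil cells.

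Ier2 (ENSMUSG00000053560, chromosome 8, 84661331 to 84662852, minus strand), a small nuclear protein of growth factor responses, was past 2-fold in 5 classes by small margins, from 1.06 (epithelial-like, 135 and 291 CPM) to 1.33 (T-like, 104 and 275 CPM). In the cells low in neutrophil transcripts the highest of its ratios was 0.90, so that 0 classes were past 2-fold. Macrophage-like cells went from 243 CPM [237, 250] in vehicle to 168 CPM [164, 173] in takinib, a ratio of -0.51.

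The 2 genes that restrain the response differed between epithelial and macrophage-like cells. Zfp36 (ENSMUSG00000044786, chromosome 7, 28376784 to 28380253, minus strand) encodes tristetraprolin, which binds AU-rich elements of cytokine mRNAs and has them degraded. It was higher past 2-fold in 4 classes. Epithelial-like cells had 85.0 CPM [78.8, 91.6] and 366 CPM [355, 377], a ratio of 1.98 that stayed at 1.43 in the low-neutrophil cells. The others were B-like (1.11), endothelial-like (1.60) and fibroblast-like cells (1.13). Their low-neutrophil cells had 443, 178 and 172 CPM, against 353, 140 and 117 CPM in vehicle, within 2-fold. Macrophage-like cells had 748 CPM [737, 760] and 432 CPM [424, 440], a ratio of -0.78. Neutrophil-like cells were also lower in takinib by less than 2-fold, with 2758 CPM [2583, 2941] and 1496 CPM [1482, 1511].

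Btg2 (ENSMUSG00000020423, chromosome 1, 134075170 to 134079120, minus strand), a p53 target that slows the cell cycle, showed the same split. In epithelial-like cells it had 81.0 CPM [74.9, 87.5] and 227 CPM [219, 236], a ratio of 1.38, or 1.14 in the low-neutrophil cells. In macrophage-like cells it had 462 CPM [453, 472] and 224 CPM [218, 229], a ratio of -1.02, or -1.13. With a pseudocount of 50 or with thinned cells the macrophage-like call was lost, with 0 of the 10 genes lower past 2-fold (0.672% and 1.42% of all genes). It was also lost without doublet removal and with each library clustered alone (1.66% and 1.96%). Neutrophil-like cells had 1232 CPM [1116, 1356] and 645 CPM [635, 655], a ratio of -0.92. Whether the 2 directions differ beyond the spread between mice was not tested.

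Sex, mitochondrial share and heat-shock transcripts moved with the groups as well. In the 4 classes with enough vehicle cells of each kind, the median ratio of the 10 genes between cells with Xist and cells with Y-linked UMIs, both of the vehicle library, was 0.31 in endothelial-like, 0.24 in epithelial-like, 0.47 in fibroblast-like and 0.28 in macrophage-like cells, higher in the Xist cells each time. Against the Xist cells alone, the takinib medians were 0.53, 0.74, 0.74 and -0.18. In epithelial-like cells Zfp36 kept a ratio of 2.58, Nr4a1 1.76, Egr1 1.34 and Btg2 1.21 in that comparison, and in macrophage-like cells Btg2 kept -1.08 and Egr2 became -1.38. Fibroblast-like cells kept only Ier3 (1.87) past 2-fold upward. The median mitochondrial share was lower in takinib in each class, for example 2.92% against 13.6% in B-like and 3.01% against 7.90% in macrophage-like cells. The 11 heat-shock genes, also known to respond to handling, summed to 4055 CPM in vehicle and 2268 in takinib B-like cells, and to 4464 and 2586 in monocyte-like cells. Fibroblast-like cells went the other way, with 3682 and 5150 CPM, and epithelial-like cells had 5871 and 5196 CPM. Hsph1, a chaperone of that list, was lower past 2-fold in takinib in all 8 classes, with ratios from -2.13 in T-like to -1.06 in macrophage-like cells. The part of these differences in the results was not tested.

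B-like, T-like, monocyte-like, fibroblast-like and endothelial-like cells were each 1 cluster, and in the other classes single clusters differed from the class. The macrophage-like median of 0.31 was not kept in 3 of its 5 clusters, which were below 0. Most vehicle macrophage-like cells lay in a cluster led by MHC class II genes (H2-Ab1, 2746 of the vehicle cells and 215 of the takinib cells), and takinib ones in clusters led by Alox15 (1528 and 1437), H2-M2 and Gpnmb (63 and 1110) and Ccl8 (305 and 898). The median of the 10 genes was 0.42 in the H2-Ab1 cluster, with 1 higher and 0 lower (1.08% and 0.846% of all genes), -0.40 in the Alox15 cluster, with 0 higher and 1 lower (0.869% and 1.04%), -0.17 in the Ccl8 cluster, with 0 in either direction (2.27% each way), and -0.10 in the H2-M2 cluster, with 2 higher and 1 lower (3.96% and 1.14%). The proliferating Pclaf cluster (198 and 187 cells) had 0.24 with 2 higher, Ier3 and Nr4a1, and 0 lower (1.79% and 1.02%). Btg2 was below 0 in all 5 clusters, from -0.52 to -1.05. Egr2 was too, and its highest level in any cluster was 176 CPM in the vehicle cells of the H2-M2 cluster, against 65.2 CPM in takinib. Klf4 was above 0 in the same 5 clusters, from 0.28 to 0.81, and Ier3 from 0.43 to 1.68.

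In the largest epithelial-like cluster, led by Hmga2 (1082 and 869 cells), the median was 0.95 with 5 genes higher and 0 lower (3.59% and 3.12% of all genes). Another cluster of the class, led by Gkn2, Gkn1 and Muc5ac, held 23 vehicle and 225 takinib cells, too few in vehicle for a ratio. The make-up of the class thus differed between the libraries, and the part of this in its values was not tested. A small epithelial-like cluster led by Mptx1 and Muc2, genes of intestinal goblet cells (102 and 81 cells), had a median of 2.31 with 9 higher and 0 lower, but 15.6% of all genes were higher there and 15.1% lower. Klf4, a factor of goblet cells, was the gene not higher, at 256 CPM in vehicle and 220 in takinib. The only neutrophil-like cluster with enough cells of both libraries, led by Cxcr2 (255 and 2376), had a median of 0.32, against -0.19 in the class, with 0 higher and 2 lower, Egr2 (-1.60) and Klf4 (-1.05), where 5.93% of all genes were higher and 16.6% lower. Egr1 there was at 1474 and 2072 CPM and Ier3 at 2043 and 3457 CPM.

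A cluster of 526 vehicle and 716 takinib cells, led by Gkn3, Reg1 and Ctrb1, genes of stomach and pancreatic acinar cells, was left without a class name. Of the 10 genes 7 were higher past 2-fold in takinib there and 0 lower, where 2.98% of all genes were higher and 1.2% lower. Egr1 had 28.6 and 242 CPM, Ier3 40.7 and 277 CPM and Klf2 10.4 and 98.0 CPM. Klf4 was within 2-fold, at 88.7 and 120 CPM. For comparison, the scaled neutrophil-like level in epithelial-like cells was 122 CPM for Egr1, 316 CPM for Ier3 and 149 CPM for Klf2. It was not computed for the Gkn3 cluster, and the part of neutrophil transcripts in the values of that cluster was not tested. A further unnamed cluster, led by U90926, Saa3, F13a1 and Arg1, held 8 vehicle and 2463 takinib cells, and its takinib cells had 1232 CPM of Ier3 and 253 CPM of Egr1.

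Along the granulocyte lineage of the takinib library, Egr1, Ier3 and Zfp36 were lower in the immature clusters than in the mature Cxcr2 cluster. The precursor cluster led by Elane and Mpo had 317 CPM of Egr1 [297, 338], the cluster led by Ifitm6, Ngp and Ltf, genes of immature granules, 744 CPM [715, 775], and the mature Cxcr2 cluster 2072 CPM [2029, 2115]. Ier3 had 673, 1326 and 3457 CPM in the same clusters, and Zfp36 341, 1005 and 2198 CPM. Not all neutrophil-like clusters were at the top: the one led by Gm31814 had 517 CPM of Egr1 [499, 536] and 888 of Zfp36. Klf2 followed another order, with 295 CPM in the precursor cluster, 1134 in the Cxcr2 cluster and 1545 in the cluster led by Ccl4 and Cxcl2. Klf4 stayed between 11.01 and 29.5 CPM throughout. The Ifitm6 cluster has no class name because precursor genes led it, and all of these clusters except the Cxcr2 one held at most 8 vehicle cells.

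**Figure D4:**
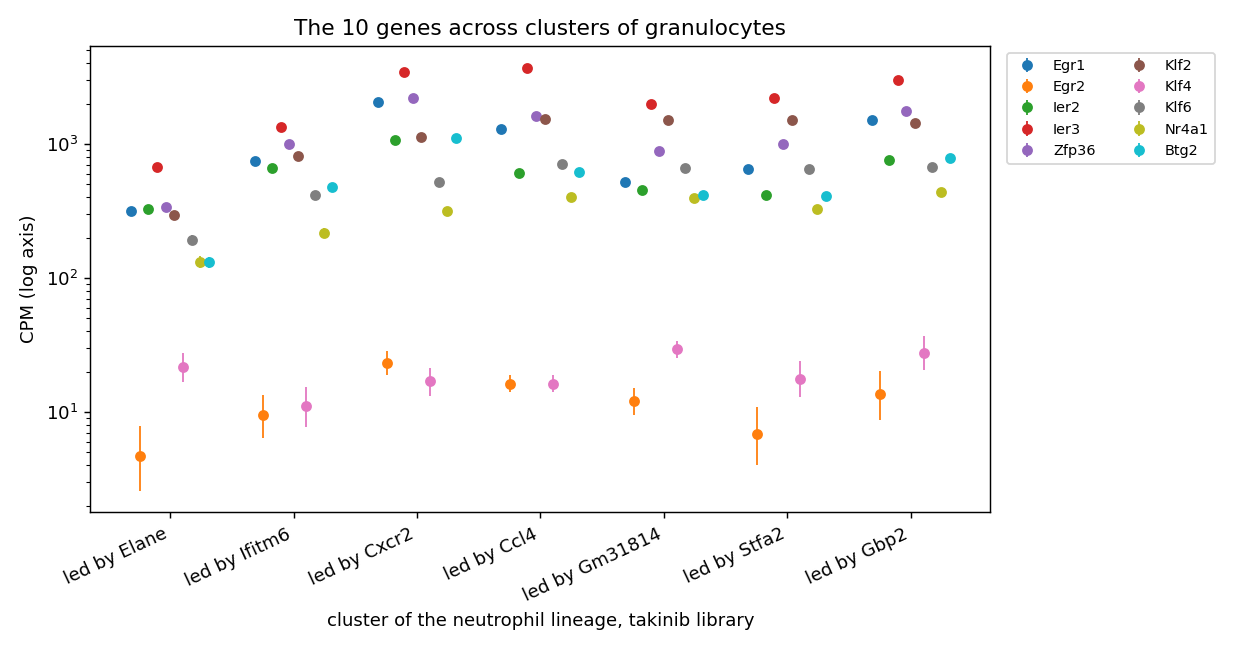
Level in CPM (log axis) of the 10 genes in 7 clusters of the neutrophil lineage of the takinib library, named by their first leading gene from the precursor cluster (Elane) at the left, with bars for the exact Poisson 95% interval. Egr1, Ier3 and Zfp36 are lowest in the Elane cluster and highest in the Cxcr2 or Ccl4 cluster, while Klf4 and Egr2 stay at or below 29.5 CPM.

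Counted per cell, the genes were detected together in more takinib cells. Each cell was thinned to 1000 UMIs so that depth was equal. At least 3 of the 10 genes were then detected in 8.40% [5.21, 12.7] of vehicle and 43.8% [41.2, 46.5] of takinib B-like cells, with exact binomial (Clopper-Pearson) intervals. Monocyte-like cells had 10.7% [6.47, 16.4] and 51.7% [48.2, 55.3], epithelial-like cells 10.4% and 42.2%, and T-like cells 6.69% and 27.3%. Among stromal classes the shares were 8.93% and 26.9% (endothelial-like) and 6.51% and 24.1% (fibroblast-like). The shares were close in macrophage-like cells, at 26.5% [25.2, 27.7] and 26.6% [25.3, 28.1], and in neutrophil-like cells, at 82.1% [76.9, 86.5] and 83.9% [83.2, 84.6]. No class can be taken to lack these genes. The lowest shares were 2.20% in vehicle perivascular-like cells (median 3088.5 UMIs) and 12.9% in takinib plasma-like cells (median 8639 UMIs), against median depths of 1625 and 1926 UMIs in B-like cells. Neutrophil transcripts differ between the libraries here too, and their part in these shares was not tested.

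Single genes showed the same in thinned cells. Ier3 was detected in 5.95% [2.89, 10.7] of vehicle and 55.6% [52.0, 59.1] of takinib monocyte-like cells (14.3% and 79.2% before thinning), and Nr4a1 in 3.57% [1.32, 7.61] and 26.8% [23.7, 30.1]. Egr1 was detected in 9.28% [7.70, 11.1] and 35.1% [32.4, 38.0] of epithelial-like cells. Btg2 ran the other way in macrophage-like cells, at 30.6% [29.3, 31.9] and 18.3% [17.1, 19.6]. Egr2 was detected in 3.36% of vehicle B-like cells before thinning and in 0 of 238 after it. A gene not seen in thinned cells was therefore not always absent before thinning.

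**Figure D5:**
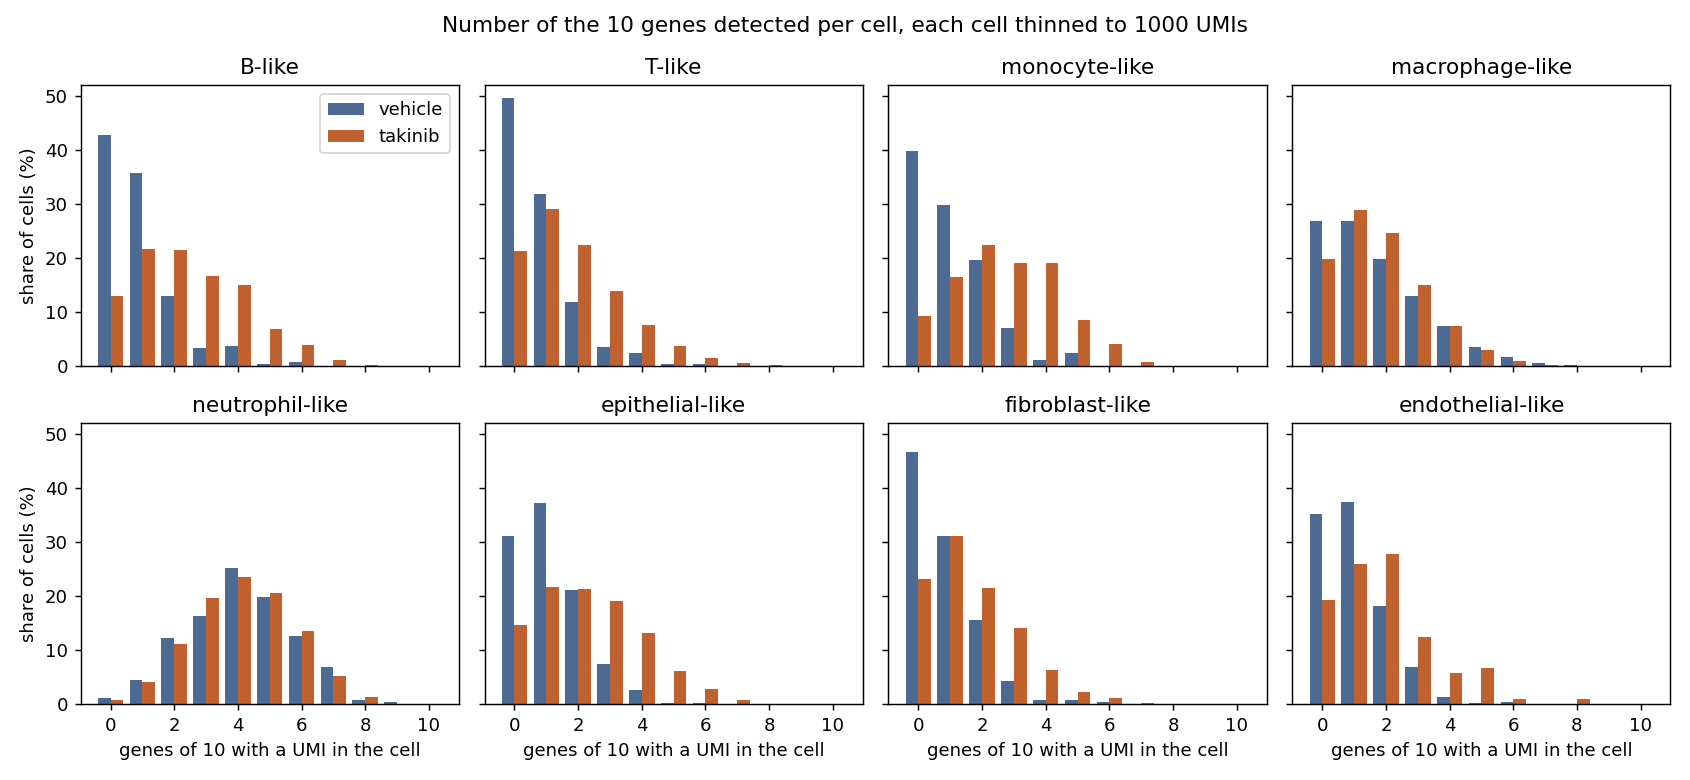
Share of cells (%) by the number of the 10 genes with at least 1 UMI, each cell thinned to 1000 UMIs, for 8 classes in vehicle (blue) and takinib (orange). Takinib bars extend further right in B-like, T-like, monocyte-like, epithelial-like, fibroblast-like and endothelial-like cells, while macrophage-like and neutrophil-like cells have similar shares at 3 genes or more (26.5% and 26.6%, and 82.1% and 83.9%). Macrophage-like cells with none of the genes are 26.8% in vehicle and 19.8% in takinib.

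Other genes of the response were followed in lists chosen for their function. Of the 8 AP-1 genes, 6 of 7 above 20 CPM were higher past 2-fold in B-like cells, 5 of 8 in epithelial-like cells and 0 of 7 in macrophage-like cells. Fos, for example, had 123 and 633 CPM in epithelial-like cells (2.27) and 459 and 598 CPM in macrophage-like cells (0.37). Among 27 further immediate-early genes, 13 of 21 above the floor were higher in B-like cells, 8 of 24 in epithelial-like and 2 of 20 in macrophage-like cells. Those with the highest ratios were Ppp1r15a, which ends the stress-induced block of translation (29.3 and 225 CPM in B-like cells, 2.58), Dusp1, a phosphatase of p38 and JNK (203 and 1061 CPM, 2.33), and Gadd45b, an NF-kB target upstream of p38 (53.1 and 277 CPM, 2.18). Lower past 2-fold in the non-myeloid classes were Ccn1 in epithelial-like cells (132 and 48.3 CPM, -1.28) and Ccn2 in fibroblast-like cells (485 and 162 CPM, -1.52), both targets of YAP and serum response factor, and Dusp2, a phosphatase of MAP kinases, in endothelial-like cells (116 and 34.1 CPM, -1.51). In myeloid classes 2 genes each were lower. They were Ier5 and Gadd45g of 20 in macrophage-like (1.53% of all genes lower) and Nr4a3 and Dusp5 of 21 in monocyte-like cells (4.56%). In neutrophil-like cells they were Ccn2 and Cebpd of 22, a smaller share than the 22.8% of all genes lower there.

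Genes that encode the inputs were mostly within 2-fold. Of 20 regulators, which include Srf, the Elk factors, Creb1, the ERK kinases and the EGR co-repressors Nab1 and Nab2, 0 of those above the floor passed 2-fold in 7 of the classes. In neutrophil-like cells, where 6.95% of all genes were higher and 22.8% lower, 1 of 13 was higher, Map2k1 (32.7 and 125 CPM, 1.66), and 1 lower, Rps6ka1 (-1.20). Close relatives of the members passed less uniformly. Zfp36l1 was higher in B-like cells (313 and 714 CPM, 1.17) and Zfp36l2 lower in neutrophil-like cells (837 and 271 CPM, -1.59). Nr4a2 was higher in monocyte-like cells (11.6 and 67.5 CPM, 1.84) and Nr4a3 lower (83.4 and 9.60 CPM, -2.25).

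Downstream of Zfp36, and of Klf2 and Klf4, the lists differed. The mRNAs known to be bound by ZFP36 (8 cytokines and Ptgs2, 9 genes) were higher past 2-fold in 6 of the 6 above the floor in B-like, T-like and endothelial-like cells, 5 of 6 in epithelial-like and 4 of 7 in macrophage-like cells. Cxcl2, a neutrophil chemokine, had 48.5 and 4101 CPM in epithelial-like cells, and 5338 and 30656 CPM in neutrophil-like cells. Csf2 was the one lower, in epithelial-like cells (77.0 and 27.0 CPM, -1.23). Known targets of KLF2 and KLF4 were above the floor mainly in endothelial-like cells, where 1 was lower past 2-fold, Nos3, the endothelial nitric oxide synthase (205 and 95.1 CPM, -1.03). The part of neutrophil transcripts in the list values was not tested.

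Across 20 profiles of class and library, 8 of the 10 genes had Pearson correlations of 0.78 to 0.94 with the mean of the 10 standardised log2 levels, to which each gene itself contributes. Klf4 (0.24) and Egr2 (0.40) were the others. The closest pair was Zfp36 and Btg2 (0.96), followed by Egr1 and Ier3 (0.92), whereas Klf4 reached at most 0.40 with another member, Klf6. Of 6543 genes ranked, those most like the mean were Junb (0.97), an AP-1 subunit, Cdkn1a (0.93), a cell-cycle inhibitor, Irak2 (0.93), an adaptor of interleukin-1 and Toll-like receptors, Tarm1 (0.93), a receptor of neutrophils, and Il1a (0.92), a cytokine. The profiles share the 2 libraries, the depth of each class and the neutrophil transcripts, and neutrophil-like cells are highest for most of these genes, so the correlations describe this set of profiles only.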

How the data were processed

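Single-cell RNA was measured in 2 droplet libraries, vehicle and takinib. The deposited files hold raw UMI counts per gene and barcode. Per the file headers they were written by Cell Ranger 4 (vehicle, all barcodes) and Cell Ranger 6.1.1 (takinib, barcodes of at least 500 UMIs), and the submitters' processing notes list the build mm10 and Cell Ranger 2.1.1. The members and gene lists were chosen with earlier results of these data known.

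Filters kept barcodes of 1000 or more UMIs and 500 or more genes whose mitochondrial share did not exceed 20%. Scrublet removed 314 vehicle doublets at its automatic threshold. In takinib that threshold marked under 0.5% of cells, so the top 6% of scores (1607 cells) were removed. The 2 libraries were clustered jointly in scanpy 1.11.5 (30 components, 15 neighbours, Leiden resolution 1, seed 1), and clusters were named from marker genes by a rule set after the clusters were seen. All 10 members are described, and other genes are named from the lists by largest ratio or role. Counts were summed per class and library. Scripts were tested on simulated data. With 1 library per group there is no test. Alternatives are given at the end, and 1 was added after the data were seen. Promoter sequences are from RefSeq on GRCm38.p6. Some items are not reported here.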

Additional observations from a re-analysis of the deposited data

Results flagged for a closer look

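Btg2 went in opposite directions in the classes compared, with a log2 ratio of takinib over vehicle of -1.02 in macrophage-like cells and 1.38 in epithelial-like cells. With 1 library per group the difference between these directions was not tested.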

How the results depend on the processing

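Of 970 values of single genes under the alternatives, 649 stayed within their 95% counting interval. Of ratios past 2-fold, 1 changed sign: Klf2 in epithelial-like cells, 1.13 against -0.30 after subtraction of the neutrophil profile. Ratios within 2-fold also changed sign, such as Ier3 in epithelial-like cells (0.33 against -0.33 with the subtraction). The cause of the changes below was not tested. Subtraction gave medians over the 10 genes of 0.55 in B-like, 0.20 in T-like, 0.22 in endothelial-like, 0.60 in epithelial-like, 0.27 in fibroblast-like and -0.074 in macrophage-like cells, and 3 (B-like), 2 (T-like), 0 (endothelial-like) and 2 (fibroblast-like) genes higher past 2-fold, with 1 lower in endothelial-like cells (3.76% of all genes; the shares higher are given with the results). Takinib cells low in S100a8 and S100a9 gave 0.49, 0.29, 0.24, 0.63, 0.33 and -0.10 in the same order and -0.027 in neutrophil-like cells, with 3 (B-like), 2 (T-like), 2 (endothelial-like) and 2 (fibroblast-like) higher and 0 lower in fibroblast-like cells (7.54%). Vehicle cells with Xist gave medians of 0.53 (endothelial-like), 0.74 (epithelial-like) and -0.18 (macrophage-like), with 1 higher in fibroblast-like cells (5.06% of all genes). In macrophage-like cells they gave 1 higher and 2 lower (2.65% of all genes higher and about 1% lower). Clustering each library alone gave medians of 1.27 (epithelial-like), 0.88 (fibroblast-like), 0.47 (macrophage-like) and 0.63 (neutrophil-like), with 2 higher and 0 lower in macrophage-like (3.33% and 1.96% of all genes) and 3 higher and 2 lower in neutrophil-like cells (7.53% and 20.6%). Without doublet removal the medians were 0.58 in macrophage-like and 0.33 in monocyte-like cells, with 7 higher in T-like cells (4.79% of all genes), 3 higher and 0 lower in macrophage-like (3.8% and 1.66%) and 0 lower in fibroblast-like cells (5.89%). A pseudocount of 50 gave medians of 0.89 (epithelial-like) and 0.23 (macrophage-like), 3 higher in epithelial-like (1.82% of all genes), 2 higher and 0 lower in fibroblast-like (2.0% and 2.43%) and 0 lower in macrophage-like cells (0.672%). A pseudocount of 1 gave 2 lower in neutrophil-like cells (31.3%). Naming by best score gave 0.40 and 1 higher in macrophage-like cells (3.25%), and clustering on all variable genes 1 higher there (3.31%). Thinned cells gave 0 lower there (1.42%). A limit of 10% mitochondrial UMIs gave 4 higher and 1 lower in B-like cells (7.42% and 6.57%). With the median tested gene at 0, neutrophil-like cells had 0.29 and 4 higher (13.4%), and fibroblast-like cells 0 lower (5.45%).

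Before thinning, the median share of cells with a UMI of a member was 14.7% (vehicle) and 42.4% (takinib) in B-like, 13.2% and 36.6% in T-like, 19.5% and 57.2% in endothelial-like, 28.0% and 63.3% in epithelial-like, 22.5% and 58.2% in fibroblast-like, 33.4% and 56.1% in macrophage-like and 15.5% and 59.4% in monocyte-like cells, and 59.3% in takinib neutrophil-like cells. Stricter cell filters could not be applied to neutrophil-like cells, subtraction could not be run in them, and vehicle cells with Xist were too few in B-like, T-like, monocyte-like and neutrophil-like cells. No paired analysis was possible because each group was 1 library.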

Other observations

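In vehicle barcodes of 1 to 100 UMIs, which are mostly droplets without a cell, all 10 genes were present. Zfp36 was at 397 CPM, Klf6 at 225, Btg2 at 212, Ier3 at 162, Egr1 at 133 and Nr4a1 at 23.0. Barcodes of this depth are not in the takinib file, so the same value for takinib was not computed.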
